A study of Homo sapiens with 8 samples.

Results

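MYCN and 4 genes that lie next to it on the short arm of human chromosome 2 (band 2p24), namely DDX1, NBAS, FAM49A and the antisense gene MYCNOS, were followed across WT cells and cells labelled FAM193A KO of a neuroblastoma line, each with and without Nutlin-3a. The members were taken by gene symbol, and all 5 are among the 25369 genes listed in the files. CHP212 is an established line derived from a human neuroblastoma, a tumour of the developing sympathetic nervous system. Cells labelled FAM193A KO and unmodified cells (WT) received 10 uM Nutlin-3a or, as vehicle, 0.2% DMSO, and were harvested after 12 h. The 4 groups (KO Nutlin-3a, KO DMSO, WT Nutlin-3a and WT DMSO) had 2 independent biological replicates each, and poly(A) RNA was sequenced from each replicate. The labels name a single KO population, so an effect of the edit cannot be told apart from any other property of that population. How FAM193A was edited is not given in the sources used here. Nutlin-3a binds MDM2 in the pocket that MDM2 uses to hold p53, and thereby stabilises p53.

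MYCN encodes a transcription factor of the MYC family. With its partner MAX it binds E-box sequences such as CACGTG in the DNA of genes for ribosome production, nucleotide synthesis and cell division. In a share of aggressive neuroblastomas the chromosome segment that holds MYCN is copied many times over, and CHP212 is known as a line of that kind. Genes beside MYCN can be carried along in the copied segment, and DDX1 and NBAS were both described in that setting. The files hold RNA reads only, so DNA copy number was not measured, and in bulk RNA fewer cells of a type and less RNA per cell cannot be told apart.

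Read totals ran from 28390405 to 38010075 per library. Reads of FAM193A were present in the KO libraries too, where its level was 42.0 and 38.1 CPM in KO Nutlin-3a libraries, against 50.4 and 44.5 CPM in WT Nutlin-3a libraries, and 34.8 and 32.2 CPM in KO DMSO libraries, against 44.1 and 40.0 CPM in WT DMSO libraries. By edgeR it was lower in KO cells under Nutlin-3a (-0.24, adjusted p = 0.00827) and under DMSO (-0.33, adjusted p = 0.000999). CPM are TMM-scaled counts per 1e+06 reads. Of 12 neuroblastoma marker genes 12 exceeded 1 CPM in the KO groups and 10 in the WT groups, while 0 of 8 blood cell markers did in any group. Libraries from each of 3 groups stood apart. Genes with at least 10 reads here and 0 in the other replicate numbered 26 in KO Nutlin-3a replicate 2, 33 in WT Nutlin-3a replicate 1 and 19 in WT DMSO replicate 2. The other 5 libraries held 0 to 8 such genes. Results are therefore also given without these 3 libraries where that changes them.

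The promoter sequences of MYCN, DDX1 and NBAS are shown because the 3 genes lie close together and yet differed in RNA level and in response, as described further on. They are RefSeq sequences of build GRCh38.p14, matched by symbol, each running from 250 bases before to 50 bases after the start of the gene. MYCN is at chr2:15940300-15940599 on the plus strand, DDX1 at chr2:15591618-15591917 on the plus strand and NBAS at chr2:15561285-15561584 on the minus strand. The authors' reads were aligned to GRCh37, so these coordinates are not those of the files. Capitals mark matches to the E2F motif, searched on both strands as TTTGGCGC, TTTCGCGC, TTTCCCGC or TTTGCCGC.
MYCN: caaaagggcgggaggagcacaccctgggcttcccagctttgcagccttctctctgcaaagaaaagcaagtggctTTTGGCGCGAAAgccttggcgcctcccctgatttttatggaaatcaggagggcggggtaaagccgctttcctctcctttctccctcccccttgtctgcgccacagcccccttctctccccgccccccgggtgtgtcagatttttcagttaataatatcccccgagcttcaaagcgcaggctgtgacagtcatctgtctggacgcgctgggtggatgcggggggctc
DDX1: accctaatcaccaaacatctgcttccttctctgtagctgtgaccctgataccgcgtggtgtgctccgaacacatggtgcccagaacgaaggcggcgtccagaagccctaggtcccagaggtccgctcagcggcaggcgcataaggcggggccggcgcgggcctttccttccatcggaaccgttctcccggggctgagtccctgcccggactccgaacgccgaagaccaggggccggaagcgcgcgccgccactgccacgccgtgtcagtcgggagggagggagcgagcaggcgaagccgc
NBAS: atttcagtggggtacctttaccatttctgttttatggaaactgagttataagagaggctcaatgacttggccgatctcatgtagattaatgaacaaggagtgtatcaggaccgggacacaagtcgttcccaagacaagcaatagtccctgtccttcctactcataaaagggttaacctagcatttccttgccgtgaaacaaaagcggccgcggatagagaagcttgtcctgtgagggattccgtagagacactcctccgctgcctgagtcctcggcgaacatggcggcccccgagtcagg

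The MYCN window held 2 overlapping E2F matches, TTTGGCGC on the gene's strand and TTTCGCGC on the other, which together span bases -176 to -165 from the gene start. At least 1 such match occurs in 3.31% of the 35116 RefSeq promoter windows, and 2 or more in 0.145%. The windows of DDX1 and NBAS and both windows of MYCNOS held no match. None of these windows held the E-box CACGTG, found in 7.26% of all windows, or the p53 response element, found in 0.0285%. The p53 pattern occurs in only 10 of the 35116 windows, so its absence here says little. FAM49A had no window among the sequences used and was not searched. A match describes letters and does not show that a factor binds there.

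The RNA levels of the 5 genes spanned a wide range. Per length, in RPKM (the authors' read counts scaled for gene length and library total), DDX1 stood at 2287 to 3566 across the 8 libraries. It ranked between place 2 and place 14 among all listed genes, in the company of ribosomal protein genes such as RPLP1 and RPS27. DDX1 encodes a DEAD-box RNA helicase, which works in transfer RNA ligation and RNA transport. MYCN stood at 754 to 1264 RPKM and ranked between place 31 and place 79. Together MYCN and DDX1 took 0.836% and 0.844% of all reads in KO Nutlin-3a, 1.00% and 1.01% in KO DMSO, 1.03% and 1.06% in WT Nutlin-3a, and 1.28% and 1.30% in WT DMSO libraries.

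The other 3 genes were far lower per length. MYCNOS, which is read from the opposite strand and overlaps the start of MYCN, stood at 10.9 to 12.8 RPKM. NBAS, which encodes a protein of transport between the Golgi and the endoplasmic reticulum, stood at 4.87 to 6.44 RPKM, near the median of 6.96 RPKM over the 15879 genes tested. FAM49A, also named CYRIA, encodes a protein that binds the GTPase RAC1 and restrains actin-driven protrusion. It stood at 0.139 to 2.23 RPKM. The levels thus set DDX1 and MYCN apart from NBAS and FAM49A, although all are direct neighbours in RefSeq order within the genes compared here.

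**Figure D1:**
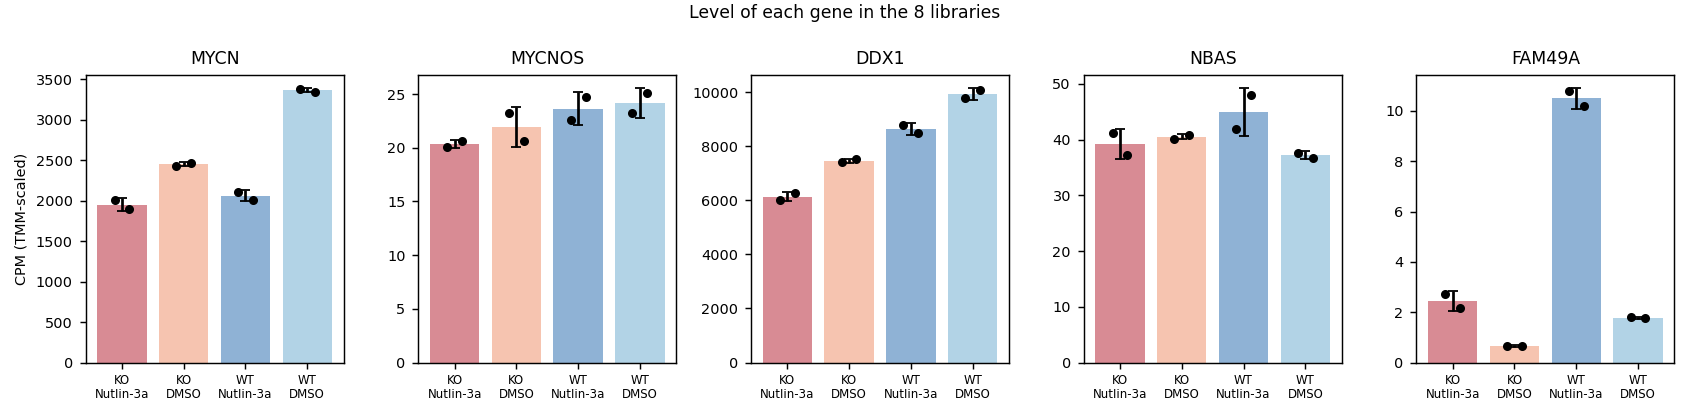
Level in CPM (TMM-scaled; bars start at 0) of each gene in KO Nutlin-3a, KO DMSO, WT Nutlin-3a and WT DMSO cells. Points are the 2 replicates, bars their mean and whiskers their SD. MYCN group means run between 1952 and 3365 CPM and those of FAM49A between 0.659 and 10.5 CPM. The y axes differ between panels.

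The wider region was described with 34 other genes of 2p25-p24, a list chosen with earlier results of these data known. Of these, 27 had enough reads to be tested, with a median over genes of 7.52 RPKM. TRIB2, which encodes a pseudokinase of the Tribbles family, was the highest of the 34 at 477 to 701 RPKM and ranked between place 78 and place 114. ODC1, the gene for the enzyme that starts polyamine synthesis, averaged 207 RPKM. LPIN1, which encodes a phosphatidate phosphatase and lies beside TRIB2 in the list, averaged 152 RPKM. NTSR2, GDF7 and APOB had at most 3 reads in any library. High and low genes alternated along the arm, as between TRIB2, FAM84A (0.609 to 4.83 RPKM), NBAS and DDX1.

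**Figure D2:**
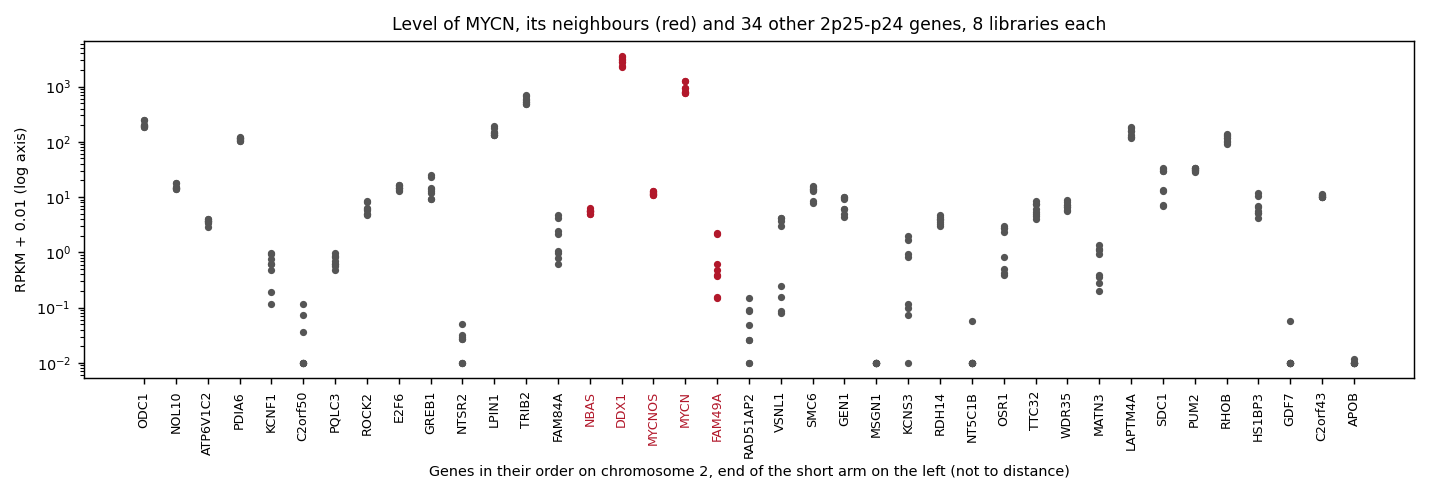
RPKM + 0.01 on a log axis of the 5 genes (red) and 34 other 2p25-p24 genes, in their RefSeq order on chromosome 2 and not to distance. Each point is 1 of the 8 libraries. DDX1, MYCN and TRIB2 stand above the other genes, while NBAS, between TRIB2 and DDX1, and FAM49A, next after MYCN, do not.

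The first comparison asks what Nutlin-3a does to the 5 genes in WT cells. MYCN had 2108 and 2010.4 CPM in WT Nutlin-3a libraries, against 3382 and 3348 CPM in WT DMSO libraries. Both treated libraries lay far below both controls, and the log2 fold change was -0.71 (SE 0.05, adjusted p = 3.38e-10 by edgeR's quasi-likelihood test with Benjamini-Hochberg adjustment over all genes). DDX1 had 8804 and 8499 CPM in WT Nutlin-3a libraries, against 9778 and 10085 CPM in WT DMSO libraries. DDX1 fell as well, by a smaller amount (-0.20, SE 0.05, adjusted p = 0.00156).

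NBAS and FAM49A went the other way in WT cells. FAM49A had 327 and 284 reads in WT Nutlin-3a libraries, against 55 and 50 reads in WT DMSO libraries. In CPM that was 10.8 and 10.2 with Nutlin-3a against 1.81 and 1.76 with DMSO, a 5.88-fold rise (log2 fold change 2.56, SE 0.17, adjusted p = 1.9e-10). Its rise exceeded that of 97.7% of tested genes. On the log2(RPKM + 1) scale, which understates the change of low genes, it was 1.22. NBAS had 41.9 and 47.9 CPM in WT Nutlin-3a libraries, against 37.7 and 36.7 CPM in WT DMSO libraries (0.27, SE 0.07, adjusted p = 0.00306).

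MYCNOS had 22.5 and 24.7 CPM in WT Nutlin-3a libraries, against 23.2 and 25.1 CPM in WT DMSO libraries. The groups overlapped, and the difference of -0.03 (SE 0.08, adjusted p = 0.759) had a 95% interval from -0.21 to 0.14. The sign turned without WT DMSO replicate 2 (0.03), without WT Nutlin-3a replicate 1 (0.06) and without the 3 libraries that stood apart (0.12). In all, 2 of the 5 genes rose and 2 fell in WT cells, where 58.6% of all tested genes passed the threshold of adjusted p 0.05, 29.4% as higher and 29.2% as lower. Whether reads of MYCN and MYCNOS were kept apart by strand in the counting is not given in the sources used here.

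The second comparison asks the same of KO cells. MYCN had 2005 and 1898 CPM in KO Nutlin-3a libraries, against 2434 and 2471 CPM in KO DMSO libraries (-0.33, SE 0.05, adjusted p = 2.19e-05). DDX1 had 6012 and 6257 CPM in KO Nutlin-3a libraries, against 7419 and 7515 CPM in KO DMSO libraries (-0.28, SE 0.05, adjusted p = 0.00011). Both genes fell. FAM49A had 100 and 72 reads in KO Nutlin-3a libraries, against 23 and 26 reads in KO DMSO libraries. At 2.72 and 2.16 CPM against 0.643 and 0.674 CPM it rose 3.70-fold (1.89, SE 0.23, adjusted p = 2e-06), and on the log2(RPKM + 1) scale by 0.43.

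NBAS and MYCNOS did not pass the test in the KO response. NBAS had 41.2 and 37.3 CPM in KO Nutlin-3a libraries, against 40.2 and 40.9 CPM in KO DMSO libraries (-0.05, SE 0.07, adjusted p = 0.64). Without KO Nutlin-3a replicate 2 that value was 0.02. MYCNOS had 20.1 and 20.6 CPM in KO Nutlin-3a libraries, against 23.3 and 20.6 CPM in KO DMSO libraries (-0.11, SE 0.08, adjusted p = 0.334). That value was -0.016 without KO DMSO replicate 1 and -0.19 without KO DMSO replicate 2. For NBAS it was -0.12 without KO Nutlin-3a replicate 1. Of the 5 genes, 1 rose and 2 fell, where 38.7% of all tested genes passed in this comparison, 18.1% as higher and 20.6% as lower.

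**Figure D3:**
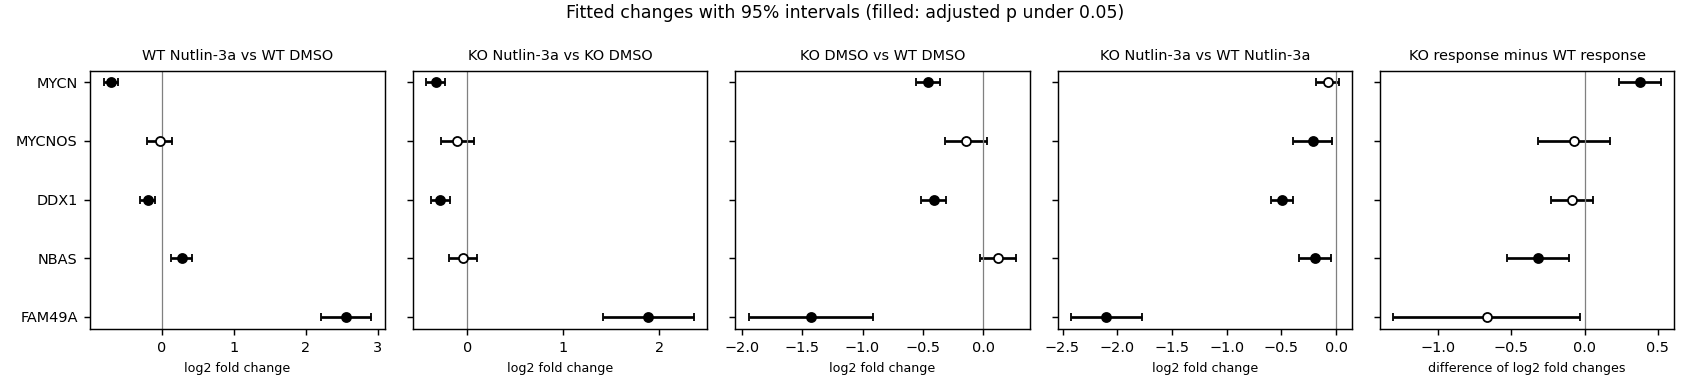
Fitted log2 fold changes of the 5 genes in 4 comparisons and, in the last panel, the difference of the Nutlin-3a responses. Whiskers are 95% intervals and filled points passed the threshold of adjusted p 0.05. MYCN lies left of 0 in both responses, FAM49A far right, and the x axes differ between panels.

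Whether the 2 genotypes respond unequally was tested as the difference of the responses. For MYCN it was 0.38 (SE 0.07, adjusted p = 0.000376), so MYCN fell less in KO than in WT cells. In DDX1 the difference of -0.08 (SE 0.07, adjusted p = 0.393) did not pass, with an interval from -0.23 to 0.06. Without the 3 libraries that stood apart it was -0.13, with a larger fall of DDX1 in KO cells. That fit leaves 3 of the groups without a second replicate, so no test result is given for it. The values of MYCN and DDX1 have opposite signs here, but the difference between the genes was not tested. Among all tested genes, 27.5% passed for this difference, 14.2% as higher and 13.4% as lower.

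The ratio of DDX1 to MYCN shows the same measurements within each library. In RPKM, DDX1 stood at 2.85 and 3.13 times MYCN in KO Nutlin-3a libraries, against 2.90 and 2.89 times in KO DMSO libraries. In WT Nutlin-3a libraries it stood at 3.97 and 4.02 times MYCN, against 2.75 and 2.86 times in WT DMSO libraries. Only the WT Nutlin-3a libraries stood apart from the other 6 in this ratio. With 2 libraries against 2, an exact permutation test of the ratio cannot go below p = 0.333, and none was run.

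**Figure D4:**
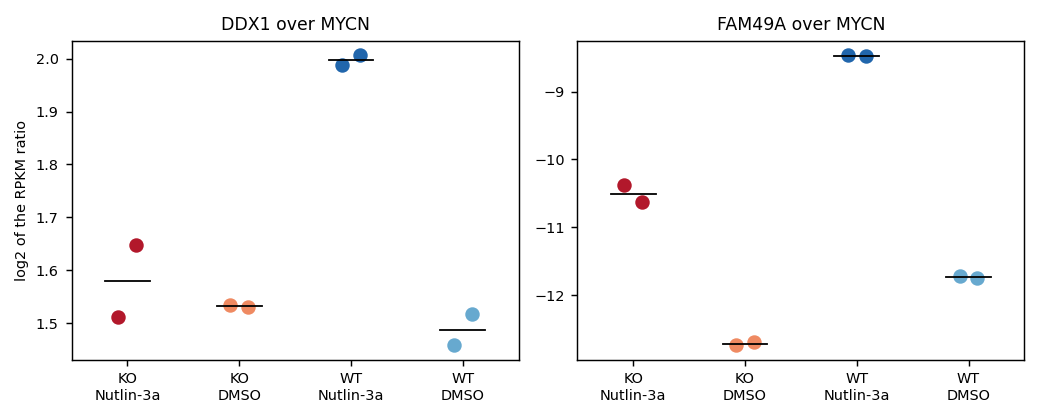
The log2 of the RPKM ratio of DDX1 (left) and FAM49A (right) to MYCN in each library, by group. Points are libraries and lines group means. The DDX1 ratio is highest in the WT Nutlin-3a libraries, at 1.99 and 2.01, and lies between 1.46 and 1.65 in the other 6.

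For FAM49A and NBAS the test of the difference depended on the settings. The difference for FAM49A was -0.67 (SE 0.30, adjusted p = 0.113) and did not pass, although it passed in the 3 limma-trend settings on log2 RPKM (adjusted p from 0.000436 to 0.0372). Those settings add 0.1 or 1 to RPKM, which shrinks a change more where the level is lower. FAM49A averaged 0.142 RPKM in KO DMSO and 0.368 RPKM in WT DMSO cells. The part of that offset in those calls was not tested. For NBAS the difference of the responses was -0.32 (SE 0.10, adjusted p = 0.0228). That call was lost without WT DMSO replicate 1 or 2, WT Nutlin-3a replicate 2, KO DMSO replicate 1 or 2, or KO Nutlin-3a replicate 2 (adjusted p from 0.0558 to 0.124). It was also lost with the DESeq2 Wald test and with limma-trend (adjusted p from 0.0503 to 0.184), so it depended on these settings. The difference for MYCNOS was -0.07 (SE 0.12, adjusted p = 0.691), and it ran from -0.16 to 0.016 when single libraries were left out, highest without KO DMSO replicate 1. Without the 3 libraries that stood apart it was -0.23.

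Without Nutlin-3a, the vehicle groups show how the 5 genes stand in KO and in WT cells. MYCN, at 2434 and 2471 CPM in KO DMSO against 3382 and 3348 CPM in WT DMSO libraries, was lower in KO cells (-0.46, SE 0.05, adjusted p = 1.61e-07). DDX1 was lower too, at 7419 and 7515 CPM in KO DMSO against 9778 and 10085 CPM in WT DMSO libraries (-0.41, SE 0.05, adjusted p = 6.14e-07). FAM49A was likewise lower, at 0.643 and 0.674 CPM in KO DMSO against 1.81 and 1.76 CPM in WT DMSO libraries (-1.43, SE 0.24, adjusted p = 5.86e-05), or -0.26 on the log2(RPKM + 1) scale. NBAS (0.12, SE 0.07, adjusted p = 0.133) and MYCNOS (-0.14, SE 0.08, adjusted p = 0.149) did not pass. The value of MYCNOS was -0.23 without KO DMSO replicate 1, -0.054 without KO DMSO replicate 2 and -0.081 without WT DMSO replicate 2. So 3 of the 5 genes were lower and 0 higher in KO cells, where 61.5% of all tested genes passed, 31.4% as higher and 30.1% as lower. At an unadjusted p under 0.05 the count of higher genes by edgeR was also 0, and with DESeq2 it was 0. NBAS was called higher with library totals alone (adjusted p = 0.0321) and in the fit of the 4 libraries compared (adjusted p = 0.0412). The summed level of the neuroblastoma markers also moved with genotype, at 2550 to 2790 CPM in the KO libraries and 1490 to 1680 CPM in the WT libraries, as did that of 6 epithelial markers, at 215 to 282 CPM in KO and 581 to 675 CPM in WT libraries. Nearly all of the epithelial sum came from KRT8 and KRT18, while KRT5, KRT14 and CDH1 averaged under 1 CPM in every group. KRT8 averaged 114 ± 7.92 CPM in KO DMSO and 285 ± 16.2 CPM in WT DMSO cells, and KRT18 averaged 154 ± 9.27 CPM in KO DMSO and 304 ± 2.67 CPM in WT DMSO cells (SD, n = 2 each). Their part in the result was not tested.

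Under Nutlin-3a the genotypes differed in another pattern. MYCN, at 2005 and 1898 CPM in KO Nutlin-3a against 2108 and 2010.4 CPM in WT Nutlin-3a libraries, did not pass the test (-0.08, SE 0.05, adjusted p = 0.170). The interval of that difference ran from -0.18 to 0.02. It passed with the DESeq2 Wald test (-0.10, adjusted p = 0.0448) and without WT Nutlin-3a replicate 2 (-0.12, adjusted p = 0.0173). It was -0.12 without KO Nutlin-3a replicate 1, -0.039 without KO Nutlin-3a replicate 2, -0.051 without WT Nutlin-3a replicate 1 and -0.017 without the 3 libraries that stood apart. DDX1 was lower in KO cells, at 6012 and 6257 CPM in KO Nutlin-3a against 8804 and 8499 CPM in WT Nutlin-3a libraries (-0.50, SE 0.05, adjusted p = 4.59e-08). FAM49A was 4.28-fold lower, at 2.72 and 2.16 CPM in KO Nutlin-3a against 10.8 and 10.2 CPM in WT Nutlin-3a libraries (-2.10, SE 0.15, adjusted p = 9.85e-10), or -1.05 on the log2(RPKM + 1) scale.

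NBAS (-0.19, SE 0.07, adjusted p = 0.0222) and MYCNOS (-0.21, SE 0.08, adjusted p = 0.0328) were called lower in KO cells under Nutlin-3a, but neither call held throughout. Leaving out replicate 2 of KO Nutlin-3a gave NBAS an adjusted p of 0.221, and leaving out replicate 2 of WT Nutlin-3a gave 0.229. Without replicate 1 of WT Nutlin-3a the NBAS value was -0.30. MYCNOS had an adjusted p of 0.137 and 0.0725 without replicate 1 and 2 of KO Nutlin-3a, and 0.166 without replicate 2 of WT Nutlin-3a. With all libraries, scaling by library totals alone ended both calls (adjusted p = 0.224 and 0.211). In this comparison 4 of 5 genes were called lower and 0 higher (also 0 higher at an unadjusted p under 0.05 by edgeR, and 0 with DESeq2), where 63.1% of all tested genes passed, 32.7% as higher and 30.4% as lower. With totals alone that balance was 6292 higher and 3857 lower genes, in place of 5190 and 4822. The median of all tested genes then stood at 0.11 on the log2 scale, against 0.02 with TMM. RPKM carry that same scaling, and by RPKM the order of MYCN in the 2 genotypes turned round, at 778 ± 34.4 in KO Nutlin-3a and 771 ± 20.7 in WT Nutlin-3a cells (SD, n = 2 each).

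Set in order of the fitted level, MYCN was highest in WT DMSO, then KO DMSO, and lowest in the Nutlin-3a groups of both genotypes, which did not pass the test against each other. DDX1 was highest in WT DMSO, followed by WT Nutlin-3a, KO DMSO and, lowest, KO Nutlin-3a, with no overlap between any of the 4 groups. FAM49A ran in the order WT Nutlin-3a, KO Nutlin-3a, WT DMSO and KO DMSO, with no overlap between neighbours in that order. The Nutlin-3a groups of MYCN did not overlap either, although they did not pass. With 2 libraries per group, a lack of overlap thus does not mark a difference.

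The genes nearest to MYCN with high levels of their own were set beside it. TRIB2 had 2016 and 2068 CPM in KO Nutlin-3a libraries, against 2512 and 2609 CPM in KO DMSO libraries (-0.33, adjusted p = 1.55e-05). It had 2342 and 2358 CPM in WT Nutlin-3a libraries, against 3170.5 and 3106 CPM in WT DMSO libraries (-0.42, adjusted p = 3.05e-07). TRIB2 thus fell in both genotypes, and its difference of responses (0.09, adjusted p = 0.334) did not pass. LPIN1 fell in WT cells (-0.39, adjusted p = 5.08e-06), while in KO cells its value of -0.13 (adjusted p = 0.0618) did not pass. Under DMSO both TRIB2 (-0.29, adjusted p = 2.27e-05) and LPIN1 (-0.43, adjusted p = 1.45e-06) were lower in the KO cells.

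Across the 27 tested genes of 2p25-p24 the changes went both ways. With Nutlin-3a 5 rose and 12 fell in WT cells (median -0.15, against 0.02 over all tested genes). In KO cells 5 rose and 9 fell (median -0.10, against -0.01). Over all tested genes 29.4% were called higher and 29.2% lower in WT cells, and 18.1% and 20.6% in KO cells. SDC1, the gene for the surface proteoglycan syndecan-1, rose in both genotypes. It averaged 98.0 ± 0.466 CPM in KO Nutlin-3a and 23.3 ± 0.600 CPM in KO DMSO cells, and 114 ± 3.11 CPM in WT Nutlin-3a and 45.4 ± 0.851 CPM in WT DMSO cells (SD, n = 2 each). FAM84A, which stands beside NBAS in the order of these genes, rose in WT (2.70, adjusted p = 8.89e-13) and in KO cells (1.15, adjusted p = 2.72e-07). GEN1, which encodes a resolvase of DNA repair, fell in WT (-1.12, adjusted p = 1.35e-11) and in KO cells (-0.65, adjusted p = 4.93e-08).

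In KO against WT cells under DMSO, 6 of these genes were higher and 14 lower (median -0.20, against 0.01 over all tested genes). Under Nutlin-3a 6 were higher and 13 lower (median -0.13, against 0.02). Over all tested genes 31.4% were higher and 30.1% lower under DMSO, and 32.7% and 30.4% under Nutlin-3a. VSNL1, which encodes a neuronal calcium sensor, was lower in KO cells under DMSO (-5.29, adjusted p = 1.51e-11) and under Nutlin-3a (-4.44, adjusted p = 1.18e-10). Lower levels in KO DMSO cells, as for MYCN, DDX1, TRIB2 and LPIN1, were more frequent than higher ones among these genes. The cause of that was not tested.

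The other MYC genes, MAX and genes of the wider MAX network were examined as a list of 13 genes. MYC itself had 30 and 34 reads in KO Nutlin-3a, 34 and 41 in KO DMSO, 37 and 4 in WT Nutlin-3a and 10 and 16 in WT DMSO libraries. WT Nutlin-3a replicate 1, with the 37 reads, is one of the libraries that stood apart. MYCL had 11 and 20 reads in KO Nutlin-3a, 14 and 21 in KO DMSO, 37 and 13 in WT Nutlin-3a and 45 and 29 in WT DMSO libraries. Both were thus far below MYCN, which had 55932 to 102921 reads.

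With Nutlin-3a 6 of the 13 rose and 3 fell in WT cells (median 0.18), and 5 rose and 2 fell in KO cells (median 0.02). Over all tested genes 58.6% were called in WT cells (median 0.02) and 38.7% in KO cells (median -0.01), and these shares also stand behind the counts of the lists that follow. MXD4, which encodes a MAX partner that opposes MYC proteins at E-boxes, averaged 104 ± 1.27 CPM in KO Nutlin-3a and 102 ± 1.59 CPM in KO DMSO cells, and 146 ± 2.10 CPM in WT Nutlin-3a and 70.1 ± 5.14 CPM in WT DMSO cells (SD, n = 2 each). It rose in WT cells (1.05, adjusted p = 3.34e-12) and did not pass in KO cells (0.02, adjusted p = 0.78). MXD3, of the same family, fell in WT (-1.24, adjusted p = 1.82e-09) and in KO cells (-0.98, adjusted p = 1.64e-08). MLXIPL, which encodes the glucose-sensing factor ChREBP, rose in both and under DMSO was lower in the KO cells (-4.27, adjusted p = 3.63e-09). It had 59 reads over both KO Nutlin-3a libraries and 8 over both KO DMSO libraries.

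Genes that act on the MYCN protein or with it at chromatin formed a list of 16. With Nutlin-3a 5 of them rose and 7 fell in WT cells (median -0.07), and in KO cells 3 rose and 7 fell (median -0.10). AURKA, the kinase that shields MYCN from degradation, averaged 37.9 ± 1.81 CPM in KO Nutlin-3a and 59.3 ± 2.41 CPM in KO DMSO cells (SD, n = 2 each), and it fell (-0.65, adjusted p = 5.36e-08). In WT cells it averaged 34.5 ± 1.73 CPM with Nutlin-3a and 79.1 ± 1.33 CPM with DMSO (SD, n = 2 each), and it fell there too (-1.20, adjusted p = 4.04e-12). FBXW7, the ubiquitin ligase subunit that marks MYC proteins for degradation, rose in WT (1.43, adjusted p = 2.12e-13) and in KO cells (1.26, adjusted p = 2.51e-12). PLK1, a mitotic kinase, fell in both (-1.52 in WT and -0.65 in KO cells).

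The activator E2F genes encode factors that can bind the motif in capitals in the MYCN promoter. E2F1 averaged 31.7 ± 2.23 CPM in KO Nutlin-3a and 123 ± 3.17 CPM in KO DMSO cells, and 6.64 ± 0.0173 CPM in WT Nutlin-3a and 91.0 ± 0.253 CPM in WT DMSO cells (SD, n = 2 each). Both E2F1 and E2F2 fell in each genotype, E2F2 by 2.29 in KO and by 4.47 in WT cells on the log2 scale. E2F3 fell slightly in KO cells (-0.17, adjusted p = 0.00708) and did not pass in WT cells (0.05, adjusted p = 0.386). Under DMSO, E2F1 (0.44) and E2F2 (1.79) were higher in KO than in WT cells, while MYCN was lower there. The part of E2F proteins in the level of MYCN was not tested.

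Of 14 genes for adrenergic transcription factors, whose proteins bind enhancers near MYCN in neuroblastoma, 13 were tested. With Nutlin-3a 1 rose and 5 fell in WT cells (median -0.11), and 2 rose and 3 fell in KO cells (median -0.05). In KO against WT cells 31.4% of all tested genes were higher and 30.1% lower under DMSO, and 32.7% and 30.4% under Nutlin-3a. Of the 13 factors 9 were higher and 3 lower under DMSO (median 0.31), and 9 were higher and 3 lower under Nutlin-3a (median 0.35). Under DMSO the higher ones included PHOX2A (2.27), and the lower ones were GATA3 (-0.87), TBX2 (-0.59) and ISL1 (-1.25).

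Known targets of MYCN or MYC were then described, with lists chosen with earlier results of these data known. Of 30 genes known to be activated, 24 fell and 4 rose in WT cells with Nutlin-3a (median -0.54, against 0.02 over all tested genes). MCM7, a subunit of the replicative helicase, fell by 1.63 on the log2 scale, and PPAT, an enzyme of purine synthesis, fell by 1.08. The rising genes were GLDC (1.49), ABCC1 (0.44), NME1 (0.38) and AHCY (0.32). In KO cells 17 fell and 4 rose (median -0.19, against -0.01), with MCM7 at -0.88. The telomerase gene TERT had 57 and 62 reads in KO Nutlin-3a against 205 and 243 in KO DMSO libraries, and 116 and 119 in WT Nutlin-3a against 467 and 347 in WT DMSO libraries.

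Under DMSO 30.1% of all tested genes were lower and 31.4% higher in KO than in WT cells (median 0.01). Of the 30 activated genes 26 were lower and 0 higher (median -0.31). The transporter gene ABCC4 (-0.93), LDHA (-0.60) and ODC1 (-0.50) were among the lower ones. The 4 that did not pass by edgeR were AHCY, CAD, NME2 and TFAP4. The count of higher genes was also 0 at an unadjusted p under 0.05 by edgeR and with DESeq2, and was 1 with library totals alone. Under Nutlin-3a 13 were lower and 8 higher (median -0.04), and 8 were lower with library totals alone. Over all tested genes 30.4% were lower and 32.7% higher there. For the difference of the responses 14.2% of all tested genes were higher and 13.4% lower. Of the 30 activated genes 19 were higher and 2 lower (median 0.27), led by MCM7 (0.75). MYCN had the same sign there, at 0.38. MCM7 and other genes of the list also act in cell division, whose part in the result was not tested.

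Of 10 genes known to be repressed by MYCN or MYC, 6 rose and 2 fell in WT cells with Nutlin-3a (median 0.51). The count of falling genes was 0 without WT Nutlin-3a replicate 1 and 1 without WT Nutlin-3a replicate 2 or WT DMSO replicate 2. In KO cells 2 rose and 3 fell (median -0.01). The rising count there was 0 without KO DMSO replicate 2 or KO Nutlin-3a replicate 2 and 1 without KO DMSO replicate 1, and the falling count was 1 without KO Nutlin-3a replicate 1. TGM2, the gene for transglutaminase 2, averaged 52.6 ± 1.58 CPM in KO Nutlin-3a and 55.5 ± 2.94 CPM in KO DMSO cells, and 617 ± 10.6 CPM in WT Nutlin-3a and 378 ± 7.50 CPM in WT DMSO cells (SD, n = 2 each). NDRG1, a differentiation and stress gene, rose in WT (1.75, adjusted p = 5.58e-10) and in KO cells (0.46, adjusted p = 0.00612). In KO against WT cells under DMSO 3 were higher and 3 lower, with TGM2 at -2.77. Over all tested genes 31.4% were higher and 30.1% lower in that comparison.

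**Figure D5:**
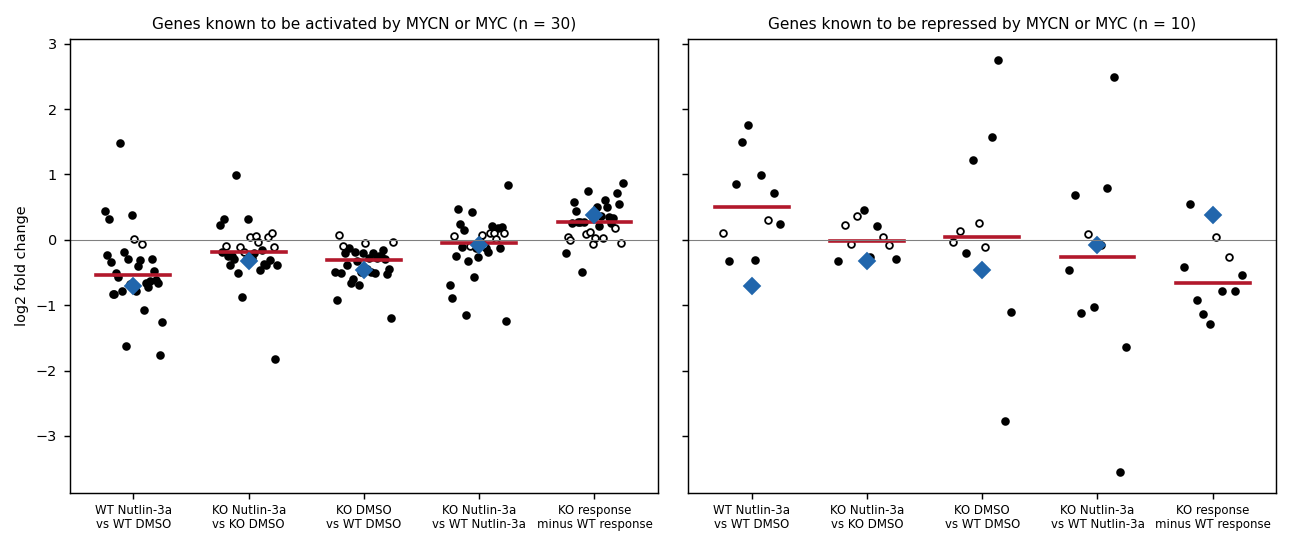
Log2 fold changes of 30 genes known to be activated (left) and 10 known to be repressed (right) by MYCN or MYC, in 4 comparisons and for the difference of the responses. Points are genes, filled where adjusted p was under 0.05, red lines are medians over the genes, and blue diamonds show MYCN itself. With TMM scaling the median of the activated genes has the sign of MYCN throughout. For KO Nutlin-3a against WT Nutlin-3a, however, the median is -0.04 and MYCN, at -0.08, did not pass. With library totals alone that value of MYCN turns to 0.01. The median of the repressed genes has the opposite sign to MYCN in the WT response, under DMSO (0.05) and in the difference of the responses. It has the same sign in the KO response (-0.01) and under Nutlin-3a (-0.27).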

How the data were processed

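Poly(A) RNA of 8 CHP212 libraries was sequenced. Per the submitters' processing notes the authors used HTSeq 0.8.0, TopHat2 2.1.1 and Bowtie2 2.2.9.0, along with FastQC 0.11.5, Picard 2.9.4, bcl2fastq and SAMtools 1.5, and the build GRCh37 (hg19). Neither the strand setting nor the annotation is given in the sources used here. The authors deposited raw read counts per gene and RPKM, both used as deposited. Counts were scaled by TMM, and 15879 of 25369 genes passed edgeR's filter on low counts, with thresholds taken from group sizes and depth. One edgeR quasi-likelihood model of the 4 groups (R 4.3.3, edgeR 4.0.16) gave 5 contrasts over all genes, with Benjamini-Hochberg adjustment and a threshold of 0.05. A standard error is the log2 fold change divided by the square root of F, and intervals are 95%. The fit was tested on simulated data.

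The members and lists were chosen with earlier results of these data known. Beyond the 5 genes, the text names from each list at most the 3 called genes with the smallest p per comparison, the 3 highest 2p25-p24 genes by RPKM, MYC, MYCL and AURKA. Other names (the 3 lower adrenergic factors, the rising and the uncalled activated genes, GSK3B, 2p25-p24 genes near 0 reads and marker genes) were chosen after their values were seen. Alternatives were other scalings, no filter, the DESeq2 1.42.0 Wald test, limma 3.58.1 trend fits on log2(RPKM + 0.1) and log2(RPKM + 1), a replicate block, the 4 libraries of each comparison alone, each library left out, and the 3 libraries that stood apart left out together. Where the design describes replicates as independent, p-values rest on the spread between them, with 2 per group, moderated by the spread in other genes. For MYCN the test had 17.8 degrees of freedom after that moderation, against 4 from the libraries alone. Some genes that this rule takes are not reported here.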

Additional observations from a re-analysis of the deposited data

Results flagged for a closer look

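The Nutlin-3a responses of the 2 genotypes were compared by edgeR's test of the difference itself (KO response minus WT response, log2). Given here are MYCN and NBAS and, from each list, at most the 3 genes with the smallest p among those with adjusted p under 0.05, so all of them passed by choice. For MYCN the difference was 0.38, with a log2 response of -0.33 in KO cells and -0.71 in WT cells. For NBAS it was -0.32, with -0.05 in KO cells and 0.27 in WT cells, and that call depended on single libraries as described. Among all tested genes 27.5% passed this test, and nothing is read from the number of genes listed.

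Among genes known to be activated, the difference was positive for MCM7 (0.75), SLC1A5 (0.72) and PPAT (0.61). Among the adrenergic factors it was positive for TBX2 (0.34), PHOX2A (0.43) and ISL1 (0.52). For the activator E2F genes it was E2F1 (1.81), E2F2 (2.18) and E2F3 (-0.21). The MAX partners MXD4 (-1.03), MXD1 (-0.88) and MXI1 (-0.44) had negative differences. Of the 16 genes acting on or with the MYCN protein 4 were higher and 2 lower, with PLK1 at 0.87, AURKA at 0.55 and WDR5 at 0.37. The 2 lower ones were GSK3B (-0.34) and TRIM32 (-0.34). On 2p25-p24 the values were SDC1 (0.75), FAM84A (-1.55) and SMC6 (0.48). The repressed targets TGM2 (-0.79), DKK3 (-0.92) and NDRG1 (-1.30) had negative differences. Among regulators of MYCN RNA the values were IGF2BP1 (0.34) and ELAVL4 (-0.36).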

How the results depend on the processing

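All choices below were made with earlier results known. Over 19 settings (18 for the difference of responses), the direction and call of MYCN held in both Nutlin-3a responses, under DMSO and in the difference of responses. For KO Nutlin-3a against WT Nutlin-3a, MYCN was 0.014 with library totals alone and 0.013 with each of the 3 limma-trend fits on log2 RPKM, -0.10 with the DESeq2 Wald test (adjusted p = 0.0448), and -0.12 to -0.039 when single libraries were left out. MYCNOS in that comparison no longer passed with upper-quartile factors (-0.18), library totals (-0.12), the DESeq2 Wald test (-0.24) or limma-trend (-0.12, -0.11 and, with no low-value filter, -0.12), and was -0.29 to -0.15 without single libraries. NBAS there no longer passed with upper-quartile factors (-0.16), library totals (-0.10) or limma-trend (-0.10, -0.088 and -0.10), and was -0.30 to -0.10 without single libraries. NBAS passed for KO DMSO against WT DMSO with library totals (0.19) and in the fit of 4 libraries (0.13). For the difference of responses NBAS was -0.32 with DESeq2 and -0.29, -0.25 and -0.29 with limma-trend, none passing, and -0.42 to -0.22 without single libraries, while FAM49A passed with limma-trend (-0.89, -0.79 and -0.89). Without single libraries MYCNOS ran from -0.090 to 0.061 in the WT response and from -0.16 to 0.016 in the difference of responses, and NBAS from -0.12 to 0.023 in the KO response. Without the 3 libraries that stood apart together, MYCNOS was 0.12 in the WT response, NBAS 0.036 in the KO response and the difference for DDX1 was -0.13. The count of all genes lower in the difference of responses was 1312 with limma-trend and no low-value filter, against 2120. The causes of these shifts were not tested. On the log2(RPKM + 1) scale FAM49A was 1.22 in the WT response, 0.43 in the KO response, -0.26 for KO DMSO against WT DMSO and -1.05 under Nutlin-3a, and it passed in each. Its 23 to 327 reads limit its precision.

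With the replicate number as a block, no call of the 5 genes changed. MYCN was -0.71 in the WT response, -0.33 in the KO response and 0.38 for their difference under the block. The correlation of deviations between same-numbered libraries ran from -0.02 to 0.23, highest between KO Nutlin-3a and WT DMSO. These values do not settle whether the numbers pair the samples.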

Other observations

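Of 7 regulators of MYCN RNA, 6 were tested, and with Nutlin-3a 3 rose and 3 fell in WT cells, while 2 rose and 2 fell in KO cells. IGF2BP1, which encodes a protein that binds and stabilises MYC family RNA, fell in WT (-0.75, adjusted p = 4.17e-10) and in KO cells (-0.40, adjusted p = 5.04e-06) by edgeR. The row named MIR34A, a microRNA gene induced by p53, had 29 and 26 reads in KO Nutlin-3a against 0 and 3 in KO DMSO libraries, and 29 and 17 in WT Nutlin-3a against 6 and 4 in WT DMSO libraries. ELAVL4, which encodes a neuronal RNA-binding protein, was higher in the KO cells under DMSO (1.42, adjusted p = 1.84e-12).

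Over the 8 libraries genes whose log2 CPM followed MYCN closely, among 10831 compared, were NOL11 and HSPA14 (Pearson r 0.994 each), PATL1 and TOMM40 (0.993 each). For DDX1 the first was FENDRR (0.997), for FAM49A NAB2 (0.997), for NBAS FEM1B (0.979) and for MYCNOS HIST2H2BC (0.956). These are descriptions over 4 groups of 2 libraries that share their treatment and genotype.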
